A study of Mus musculus with 92 samples.

Results

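Microglia-like cells (MLCs) raised from an engineered progenitor line called ER-Hoxb8 were compared with MLCs raised from fresh bone marrow (BMD MLCs), after both kinds of cell had lived in the brains of mice without microglia. The comparison rests on 6 ER-Hoxb8 MLC libraries and 6 BMD MLC libraries, 12 of the 92 RNA-seq libraries of the series, chosen by their labels. Levels are also given for 9 libraries of unmanipulated microglia from FVB WT mice and for macrophages grown in dishes for 7 days with M-CSF, 3 libraries from FVB WT marrow and 3 from ER-Hoxb8 cells of an FVB Cas9 mouse with the genotype Cas9 het.

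ER-Hoxb8 cells are marrow progenitors transduced with a retrovirus that encodes Hoxb8 fused to the estrogen receptor. With estradiol and GM-CSF they keep dividing in an immature state, and without estradiol they mature into macrophages. For the MLCs, donor cells of genotype WT were injected into the brains of newborn Csf1r-/- pups, which cannot make microglia of their own but still have blood leukocytes, and were taken out about a fortnight later by sorting CD45+ CD11B+ cells into TRIzol LS. The paper's gating panel for transplanted cells also lists GFP. Whether each library used here was gated on it is not stated. A gate on CD45 and CD11B alone also admits other myeloid cells. The names of the ER-Hoxb8 MLC libraries form a GFPHox series (replicates 1, 2 and 3) and a WTHox series (replicates 4, 5 and 6). Names of the WTHox series end in Lo. The labels explain neither the split nor this ending. They also do not state how many lines or host animals stand behind the libraries, nor their sex.

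Macrophages that enter an empty brain take on part of the microglial program under local signals and keep marks of their marrow origin. In microglia and macrophages, activation is known to raise genes for antigen presentation, chemokines, complement and lipid handling, while the resting program falls. Border macrophages, which line the meninges and vessels, express a further set of scavenger receptors.

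Before the comparison, the libraries were checked against their labels. The genes of the sort were well expressed: Ptprc, which encodes CD45, lay between 10.05 and 11.82 log2 CPM in ER-Hoxb8 MLCs (median 10.42) and between 9.83 and 10.81 in BMD MLCs (median 10.29). Itgam, which encodes CD11B, spanned 7.44 to 8.55 and 7.36 to 8.43 in the same order, so the groups overlapped for both genes. Of 10 genes of myeloid identity, 0 passed the threshold used below in limma, 4 reached an unadjusted p under 0.05, and the median log2FC was -0.24. Hoxb8 itself was at the lowest value of the table, -3.62, in all 12 libraries.

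Several libraries stood apart from their group. ER-Hoxb8 MLC replicate 6 had the lowest Csf1r, the receptor that macrophages need to survive (6.08 log2 CPM, against 7.97 to 11.37 in the other 5), and the highest Ly6c2 and Ccr2, which mark classical monocytes (11.12 and 11.78). The 17 monocyte genes summed to 44370 CPM in that library and to 2709 to 11400 CPM in the other ER-Hoxb8 MLCs, with lysozyme gene Lyz2 the most abundant. Neutrophil markers split the series: the 9 genes summed to 348.3 to 929.4 CPM in the GFPHox libraries and to 4762 to 33600 CPM in the BMD MLCs. In WTHox replicates 4, 5 and 6 they summed to 20390, 44160 and 4177 CPM. The most abundant of them was Ngp, except in replicate 6, where it was S100a8. The Y-linked gene Eif2s3y was above 4 log2 CPM in 5 BMD MLC libraries and in ER-Hoxb8 MLC replicate 5, and below it in BMD MLC replicate 3 and the other 5 ER-Hoxb8 MLC libraries, of which replicates 1 and 2 were intermediate (3.14 and 3.02). The term for Eif2s3y level used below is this split at 4, which nearly follows the groups, so in a call lost with it the group and the Y-linked level cannot be told apart. The part of these features in the results was not tested, apart from the counts without these libraries and with a term for Eif2s3y level given next.

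Differentially expressed genes (DEGs) had to pass an adjusted p of 0.05 in limma and a change of 2 on the log2 scale. Of 11379 genes tested, 497 (4.37%) were DEGs, and 1416 had an adjusted p under 0.05 (794 higher, 622 lower). Counts of list members at an unadjusted p under 0.05 are given without the share over all genes, so they are a description. In ER-Hoxb8 MLCs 215 genes (1.89%) were higher and 282 (2.48%) were lower than in BMD MLCs, and the median log2FC of all genes tested was -0.20. The values of the 2 groups did not overlap for 849 genes (7.46%), of which 514 were higher (4.52%) and 335 were lower (2.94%). The p-values measure the spread between libraries, and the ER-Hoxb8 MLCs were the more varied group: their libraries correlated across genes with each other at a mean Pearson's r of 0.740 to 0.809, against 0.832 to 0.921 among BMD MLCs (genes are not independent replicates). The number of DEGs was 567 without ER-Hoxb8 MLC replicate 6 and BMD MLC replicate 3, 563 without ER-Hoxb8 MLC replicates 5 and 6, and 476 with a term for Eif2s3y level. In that order, 420, 394 and 320 of these were among the 497. After quantile normalization 357 genes were higher and 241 lower, so which direction held more DEGs depended on the scaling. Of 102 named genes past the threshold, 80 kept it whichever library was left out and 72 kept it with the Eif2s3y term, and losses without a library are given beside the genes. The term took away 30 calls, 10 of which are marked where they appear. The others were Adora3, Birc5, Cd209a, Cd34, Cd79a, Cd8a, Ctsd, Cxcl2, Fabp7, Fcrls, Gas6, Gpr97, Itgax, Kdm5d, Ltf, Ms4a4a, Ms4a7, Naaa, Pf4 and Rgs5. Their adjusted p ran from 0.048 (Adora3, at a log2FC of 1.80) to 0.381 (Cxcl2). With the term the log2FC of Adora3, Cd34, Cxcl2, Itgax, Kdm5d and Ms4a4a was under the limit of 2. For the rest of these genes it stayed past that limit and only the adjusted p did not pass.

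**Figure D1:**
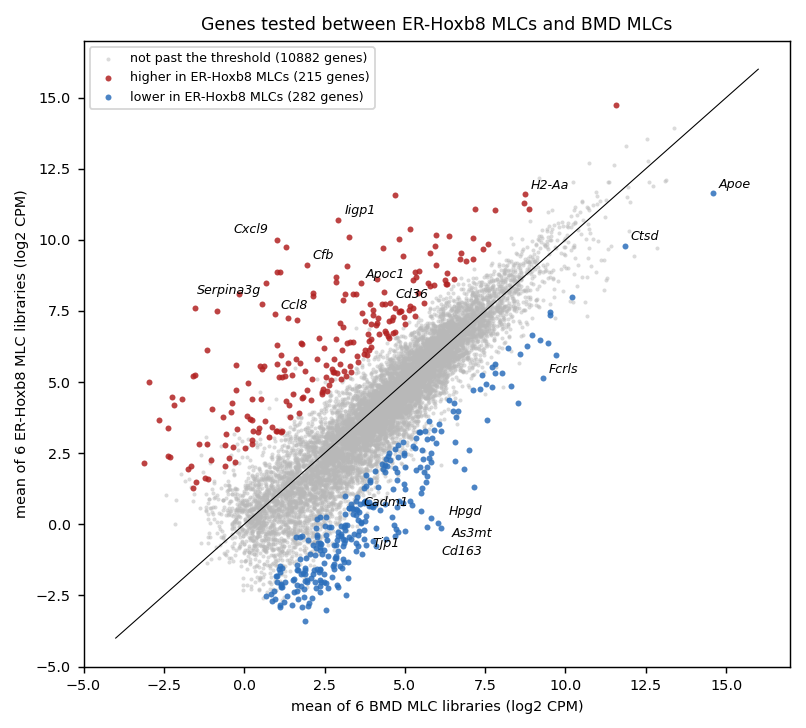
Mean level of each of the 11379 genes tested in 6 BMD MLC libraries (horizontal axis, log2 CPM) and in 6 ER-Hoxb8 MLC libraries (vertical axis, log2 CPM), with the line of equal levels in black. Red points are the 215 genes higher in ER-Hoxb8 MLCs, blue points the 282 lower ones and grey points all others. Apoe stands at the top right of the blue points, and Cxcl9 and Serpina3g are low in BMD MLCs and high in ER-Hoxb8 MLCs.

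Chemokines were among the most strongly raised genes. Of 16 chemokine genes tested, 9 were higher and 1 was lower in ER-Hoxb8 MLCs (median log2FC 3.56). Cxcl9, which draws T cells through the receptor CXCR3, lay at -0.60 to 1.88 log2 CPM in BMD MLCs (median 1.01) and at 7.50 to 11.72 in ER-Hoxb8 MLCs (median 10.18). Every ER-Hoxb8 MLC library was far above every BMD MLC library, and the log2FC was 8.97 ± 0.60 (SE, n = 6 and 6, adjusted p = 8.45e-07). Cxcl10 and Cxcl11, ligands of the same receptor, rose by log2FC of 8.26 and 7.27, although Cxcl11 reached only 1.08 log2 CPM in replicate 4 against 6.19 to 7.95 in the other ER-Hoxb8 MLCs. Cxcl11 passed the filter mainly through its level in ER-Hoxb8 MLCs, so its part of the chemokine count is a description.

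The monocyte-attracting chemokines Ccl2, Ccl7 and Ccl8 rose as well. Ccl7 was at 3.84 to 6.75 log2 CPM in BMD MLCs (median 5.18) and at 7.80 to 11.83 in ER-Hoxb8 MLCs (median 10.96), with no overlap and a log2FC of 5.21 ± 0.65 (adjusted p = 0.000187). Ccl8 reached 7.14 to 9.31 in 5 ER-Hoxb8 MLC libraries but 3.35 in replicate 6, within the BMD MLC range of -0.40 to 3.62, and its log2FC was 6.42 ± 0.92 (adjusted p = 0.000532). Ccl5, which attracts T cells, rose by 5.83, and Ccl4, an attractant of macrophages and lymphocytes, by 4.11. Cxcl2, a neutrophil attractant, passed the threshold with a log2FC of 2.47 but lost it without any 1 of 8 libraries, with an adjusted p of up to 0.0863. The single lower member, the eosinophil attractant Ccl24 (log2FC -3.27, adjusted p = 0.0291), lost its call without any 1 of 6 libraries, with an adjusted p of up to 0.0636.

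Of 12 inflammatory mediators tested 3 were higher and 0 lower (median 1.64): Il18bp, the soluble inhibitor of interleukin-18, Il27 and Csf1. All 12 had a positive log2FC and 6 an unadjusted p under 0.05, and 5 were higher after quantile normalization and 6 with the GFPHox libraries alone. Il18bp spanned 2.98 to 5.07 log2 CPM in BMD MLCs (median 4.35) and 8.32 to 8.96 in ER-Hoxb8 MLCs (median 8.66), a narrow band in all 6 libraries (log2FC 4.50 ± 0.32, adjusted p = 1.42e-06). Il27, a subunit of an immunoregulatory cytokine, rose by 3.75 and Csf1, the gene of M-CSF, by 3.73. Tnf lay at 1.13 to 7.28 in ER-Hoxb8 MLCs and 2.35 to 3.30 in BMD MLCs (adjusted p = 0.167), Il1b at 4.08 to 8.05 and 3.59 to 4.73 (adjusted p = 0.322). Nos2, the inducible nitric oxide synthase, was at the lowest value in all 6 BMD MLC libraries and in ER-Hoxb8 MLC replicates 2, 4 and 5, and at 2.60, 4.48 and 2.86 log2 CPM in replicates 1, 3 and 6.

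Antigen presentation genes formed a second raised group. Of 17 genes of the MHC class I pathway tested, 10 were higher and 0 lower (median 2.28), and the groups did not overlap for 13 of them. Nlrc5, the transcriptional activator of MHC class I genes, lay at -0.69 to 2.03 log2 CPM in BMD MLCs (median 1.31) and at 5.66 to 7.08 in ER-Hoxb8 MLCs (median 6.31). It gave the largest difference of the list, 5.29 ± 0.45 (adjusted p = 5.67e-06), followed by the nonclassical class I genes H2-Q7 at 3.88 and H2-Q6 at 3.72. Tap1, which pumps peptides into the endoplasmic reticulum, rose by 3.48, and the immunoproteasome subunits Psmb9 and Psmb8 by 2.62 and 2.35. B2m, the shared light chain, had a median of 10.81 log2 CPM in BMD MLCs and 12.77 in ER-Hoxb8 MLCs, without overlap, and a log2FC of 1.97 just under the limit (adjusted p = 0.000166). The H2-Q and H2-T genes are close paralogs that may share reads, so their single values are less certain than the group's.

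Of 9 MHC class II genes tested, 4 were higher and 0 lower (median 1.62). Cd74, the invariant chain, was the most abundant: BMD MLCs held 11.07 to 12.39 log2 CPM (median 11.46) and ER-Hoxb8 MLCs 13.76 to 15.63 (median 14.77), without overlap (log2FC 3.17 ± 0.40, adjusted p = 0.000179). Ciita, the master activator of class II genes, lay at 2.03 to 3.44 in BMD MLCs (median 2.90) and 3.56 to 8.01 in ER-Hoxb8 MLCs (median 6.96), with replicate 4 the lowest (log2FC 3.63, adjusted p = 0.00156). H2-Aa and H2-Ab1, the chains of the class II molecule itself, rose by 2.84 and 2.57. The call of H2-Ab1 was lost with the Eif2s3y term, at a log2FC of 2.295 (adjusted p = 0.107). Among 10 co-stimulatory and checkpoint genes tested, Cd40 and Cd274 were higher and 0 lower (median 0.18, 0.01 without ER-Hoxb8 MLC replicate 6, and -0.06 with the Eif2s3y term). Cd40, the receptor through which T cells activate macrophages, had values of 3.20 to 5.24 in BMD MLCs and 5.36 to 8.88 in ER-Hoxb8 MLCs (log2FC 3.53 ± 0.56), and Cd274, which encodes the inhibitory ligand PD-L1, rose by 4.60 ± 0.60. Cd86, a co-stimulatory ligand, had a median of 9.09 in each group (log2FC 0.20, adjusted p = 0.605).

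**Figure D2:**
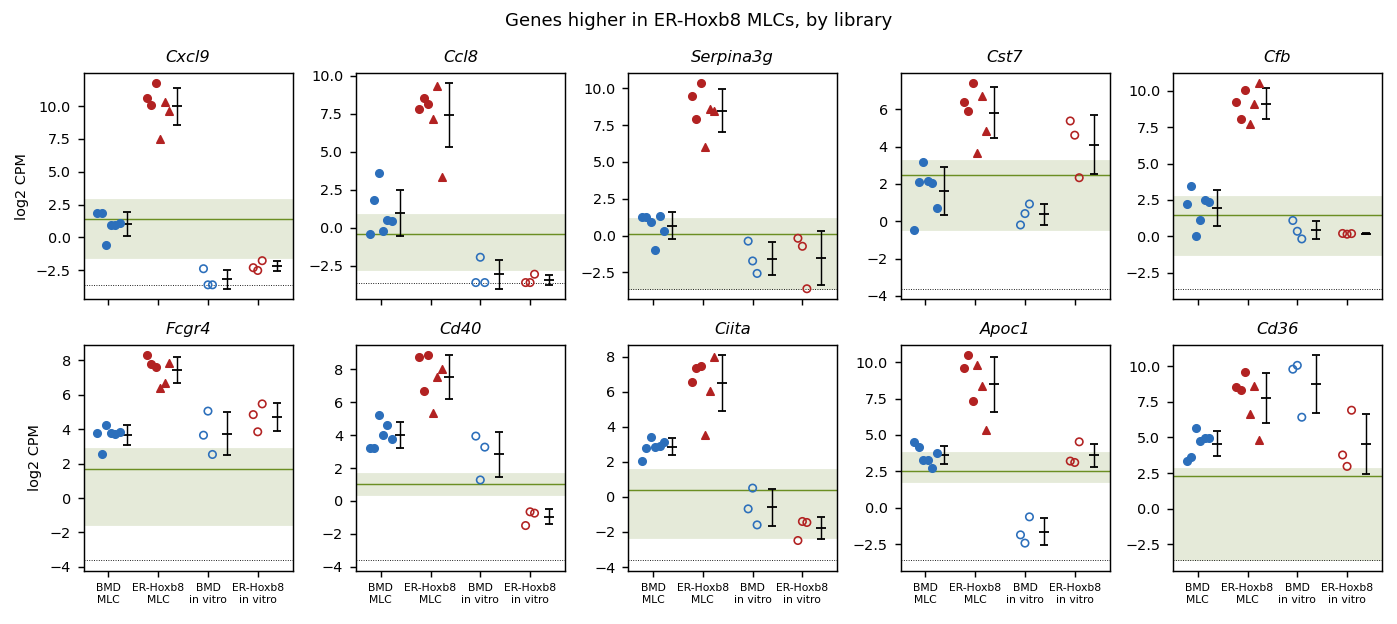
Levels (vertical axes, log2 CPM) of 10 genes that were higher in ER-Hoxb8 MLCs, by library: BMD MLCs in filled blue, ER-Hoxb8 MLCs in filled red (circles for the GFPHox series, triangles for the WTHox series) and the macrophages grown in vitro as open circles. Black bars give the mean with its SD, the green line and band the median and range of 9 microglia libraries, and the dotted line the lowest value of the table. Only Ccl8 and Cd36 overlap between the MLC groups, and for both the lowest ER-Hoxb8 MLC library is replicate 6.

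A further list held the Serpina3 cluster, inhibitors of serine proteases, and Cst7, which encodes the protease inhibitor cystatin F. Of 12 members, 5 passed the filter on low values, and all 5 of these were higher (median 6.36). Because a gene this low in BMD MLCs passes only through its level in ER-Hoxb8 MLCs, the count and the median are a description. Serpina3g reached at most 1.30 log2 CPM in BMD MLCs (median 1.08) and lay at 6.03 to 10.33 in ER-Hoxb8 MLCs (median 8.55), and Serpina3f at -1.83 to 0.73 (median -0.96) and 5.16 to 9.26 (median 7.33). Replicate 4 was the lowest ER-Hoxb8 MLC library for both, and still far above all BMD MLCs (log2FC 7.80 ± 0.63 and 8.36 ± 0.66). Serpina3i rose by 6.36 and Serpina3h by 4.68, and these paralogs may share reads. Cst7, with -0.47 to 3.17 (median 2.08) in BMD MLCs and 3.66 to 7.38 (median 6.15) in ER-Hoxb8 MLCs, had a log2FC of 4.19 ± 0.69 (adjusted p = 0.00139).

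Of 15 complement genes tested, 3 were higher and 0 lower, and the list's median log2FC was -0.23, -0.05 without ER-Hoxb8 MLC replicate 6 and 0.20 without replicates 5 and 6. Cfb, factor B of the alternative pathway, rose from 0.01 to 3.48 log2 CPM in BMD MLCs (median 2.29) to 7.75 to 10.51 in ER-Hoxb8 MLCs (median 9.15), a log2FC of 7.18 ± 0.58 (adjusted p = 3.74e-06). C4b of the classical pathway rose by 5.89 ± 0.58, with 7.44 to 8.01 in 5 libraries and 4.56 in replicate 6. Itgax, the complement receptor subunit CD11C, rose by 2.13 but fell under the log2FC limit without BMD MLC replicate 6 or ER-Hoxb8 MLC replicate 3 (1.78 at the least). C1qa, which starts the classical pathway, spanned 6.46 to 12.08 in ER-Hoxb8 MLCs and 9.50 to 11.34 in BMD MLCs (adjusted p = 0.526). Of 6 Fc gamma receptor genes, Fcgr4 alone was higher and 0 were lower (median 0.38). Fcgr4, an activating receptor for IgG, had 2.57 to 4.25 log2 CPM in BMD MLCs (median 3.79) and 6.41 to 8.31 in ER-Hoxb8 MLCs (median 7.68), a log2FC of 3.78 ± 0.35 (adjusted p = 1.33e-05).

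The genes that rose most also included GTPases that act against intracellular pathogens. Gbp8 (log2FC 9.15), Gbp6 (8.45), Tgtp1 (7.84), Iigp1 (7.79) and Gbp5 (7.74) were, with Cxcl9, Cxcl10, Cxcl11, Serpina3f and Serpina3g, the 10 largest differences without overlap. Cxcl11 and Serpina3f passed the filter mainly through their levels in ER-Hoxb8 MLCs, so their place among the 10 is a description. Iigp1 had 2.22 to 3.52 log2 CPM in BMD MLCs (median 2.92) and 9.83 to 11.40 in ER-Hoxb8 MLCs (median 10.90), with little spread in either group (log2FC 7.79 ± 0.32, adjusted p = 5.19e-09). The Gbp and Tgtp genes have close paralogs that may share reads. Beside them, 20 of the 21 interferon-stimulated genes of the study's list were higher and 0 lower (median 3.51). A list of 20 genes taken from the study's enriched terms, which holds only part of them, was higher in all members (median 3.63). These genes were chosen on the same samples and are not independent evidence.

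Promoters of the raised genes were read from the RefSeq promoter table (GRCm38.p6, from 250 bases before to 50 after the start of a gene), in which 126 of the 215 higher and 212 of the 282 lower DEGs were found. A repeat of GAAA after a gap of 2 bases, a core of the elements bound by interferon regulatory factors, was searched on both strands, as was TTCNNNGAA, the core bound by STAT proteins. Both motifs were chosen after the raised genes were seen. The first was in 1131 of 32851 promoters in the table (3.44%), in 42 of 149 promoters of higher DEGs (28.2%) and in 4 of 290 promoters of lower DEGs (1.38%). The second was in 2726 promoters (8.3%), in 26 of higher DEGs (17.4%) and in 19 of lower DEGs (6.55%). A match is a description of the letters and not a binding site. The 4 examples printed were chosen after their values and matches were seen. Serpina3g, Serpina3f and Fcgr4 hold 1 match each, and Gbp5 holds 3. They lie on the plus strand at chr12:104235897-104236196 (Serpina3g), chr12:104214294-104214593 (Serpina3f), chr1:171018676-171018975 (Fcgr4) and chr3:142496684-142496983 (Gbp5), and capitals mark the matches, TTCNNNGAA in the Serpina3 genes, the GAAA repeat in Fcgr4 and both in Gbp5.
Serpina3g: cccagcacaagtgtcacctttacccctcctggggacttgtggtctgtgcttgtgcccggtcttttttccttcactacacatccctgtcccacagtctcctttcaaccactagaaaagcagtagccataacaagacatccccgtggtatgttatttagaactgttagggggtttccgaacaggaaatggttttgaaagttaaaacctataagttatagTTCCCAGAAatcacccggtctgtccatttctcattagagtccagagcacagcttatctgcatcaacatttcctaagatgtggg
Serpina3f: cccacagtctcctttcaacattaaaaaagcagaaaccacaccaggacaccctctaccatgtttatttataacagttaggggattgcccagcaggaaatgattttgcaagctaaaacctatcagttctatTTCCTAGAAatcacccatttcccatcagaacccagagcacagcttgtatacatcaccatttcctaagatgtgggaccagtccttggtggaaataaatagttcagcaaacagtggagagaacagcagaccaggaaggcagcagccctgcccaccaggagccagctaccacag
Fcgr4: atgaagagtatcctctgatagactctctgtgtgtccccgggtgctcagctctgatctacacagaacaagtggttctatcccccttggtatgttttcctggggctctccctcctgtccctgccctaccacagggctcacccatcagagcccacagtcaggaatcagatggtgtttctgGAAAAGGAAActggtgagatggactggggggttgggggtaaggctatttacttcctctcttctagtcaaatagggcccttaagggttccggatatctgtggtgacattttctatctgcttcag
Gbp5: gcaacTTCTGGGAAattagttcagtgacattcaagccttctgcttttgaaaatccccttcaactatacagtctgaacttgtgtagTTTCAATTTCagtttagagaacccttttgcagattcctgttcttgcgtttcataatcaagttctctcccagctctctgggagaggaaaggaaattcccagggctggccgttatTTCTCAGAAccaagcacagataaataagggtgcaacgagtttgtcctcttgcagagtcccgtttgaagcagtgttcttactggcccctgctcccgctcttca

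Lipid genes moved in both directions. Of 19 lipoprotein and cholesterol efflux genes tested, 2 were higher and 2 lower (median -0.55, and -0.09 without ER-Hoxb8 MLC replicate 6). Apoc1, a small apolipoprotein, lay at 2.76 to 4.50 log2 CPM in BMD MLCs (median 3.53) and at 5.36 to 10.49 in ER-Hoxb8 MLCs (median 8.95), without overlap (log2FC 4.86 ± 0.71, adjusted p = 0.000615). Cd36, the receptor for fatty acids and oxidized lipoproteins, rose by 3.21 ± 0.69 (adjusted p = 0.00832), with 6.67 to 9.60 in 5 libraries and 4.79 in replicate 6, inside the BMD MLC range of 3.34 to 5.69. Apoe, the main apolipoprotein of the brain and a neighbour of Apoc1 in the genome, went the other way: it was the most abundant gene among the lower DEGs, at 12.76 to 16.25 log2 CPM in BMD MLCs (median 14.80) and 10.68 to 12.82 in ER-Hoxb8 MLCs (median 11.69). The groups touched at 1 library of each kind, and the log2FC was -2.95 ± 0.64 (adjusted p = 0.00877). Microglia had a median of 11.15, nearer to the ER-Hoxb8 MLCs. With the Eif2s3y term the calls of Apoe (-2.75, adjusted p = 0.0857) and Cd36 (3.10, adjusted p = 0.0732) were lost. Pltp, which transfers phospholipids between lipoproteins, fell by 2.85 (adjusted p = 0.0197).

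The genes known from disease-associated microglia split evenly: of 22 tested, 4 were higher and 4 lower (median -0.32). Cst7, Itgax and Csf1 are described above, and Cd52, a surface glycoprotein of leukocytes, rose from 6.78 to 8.13 log2 CPM to 9.19 to 10.25 (log2FC 2.27 ± 0.26, adjusted p = 9.45e-05). On the lower side stood Apoe, Cadm1, Ank and Ctsd. Cadm1, an adhesion molecule, lay at 3.35 to 6.90 in BMD MLCs (median 5.93) and at -1.05 to 1.80 in ER-Hoxb8 MLCs (median 0.61), without overlap (log2FC -5.04 ± 0.65, adjusted p = 0.00024), while microglia held 5.17 to 7.34. Ank, a pyrophosphate transporter, fell by 3.66 (adjusted p = 0.0158). Ctsd, the lysosomal protease cathepsin D, passed the threshold at -2.06 but lost its call without any 1 of BMD MLC replicates 5 and 6 and ER-Hoxb8 MLC replicates 4, 5 and 6, where the log2FC came as near as -1.74 or the adjusted p reached 0.0511. It was the single DEG of 24 lysosomal genes (median -0.49). Lpl, a lipase, had 3.01 to 6.46 in ER-Hoxb8 MLCs and 3.03 to 4.66 in BMD MLCs (adjusted p = 0.0914).

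Of 17 border macrophage genes tested, 0 were higher and 6 lower (median -2.07), and at an unadjusted p under 0.05, 10 were lower and 2 higher. With an adjusted p under 0.05 there were 8 of the 17, against 1416 of all 11379 genes. Cd163, the scavenger receptor for hemoglobin, had the largest difference: 4.58 to 6.71 log2 CPM in BMD MLCs (median 5.68) and -2.35 to 2.57 in ER-Hoxb8 MLCs (median 0.02), with no overlap (log2FC -5.76 ± 0.70, adjusted p = 0.000149). Its median in ER-Hoxb8 MLCs was under 1 CPM, so Cd163 passed the filter through the BMD MLCs. Its test and its part of the counts of this list are a description. Fewer cells of a type and less RNA per cell cannot be told apart in these bulk libraries. Cbr2, a carbonyl reductase, fell by 3.10 (adjusted p = 0.00489). The other 4 calls were each lost in some fits without 1 library. Pf4, a platelet-type chemokine, fell by 3.89 and by at least 3.81 without BMD MLC replicate 5 or 6, where the adjusted p rose just past the limit (up to 0.0517), Ms4a7 fell by 2.21 but came to -1.93 without BMD MLC replicate 3 or ER-Hoxb8 MLC replicate 6, Dab2 fell by 2.16 but came to -1.89 without ER-Hoxb8 MLC replicate 6, and Ms4a4a lost its call without any 1 of 7 libraries (adjusted p up to 0.0741). Mrc1, the mannose receptor, did not pass (adjusted p = 0.0771) although its groups did not overlap, at 10.34 to 11.03 in BMD MLCs and 1.09 to 9.79 in ER-Hoxb8 MLCs, with replicate 6 the lowest.

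**Figure D3:**
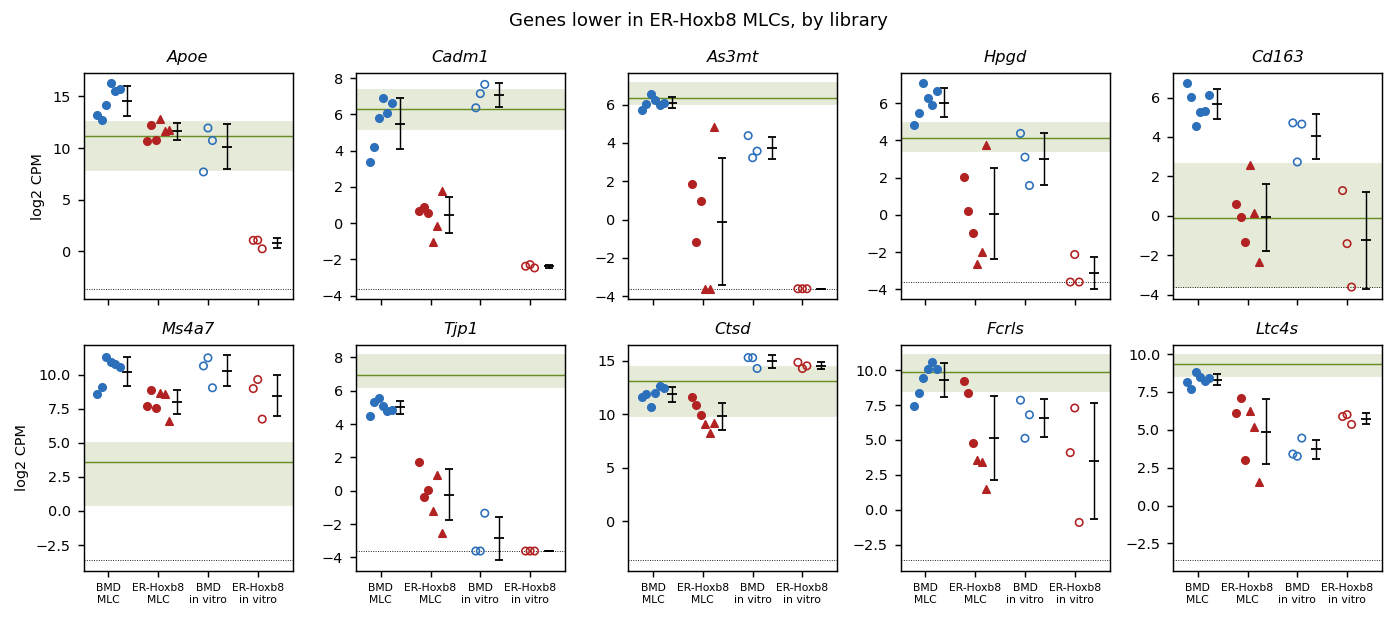
Levels (vertical axes, log2 CPM) of 10 genes that were lower in ER-Hoxb8 MLCs, by library: BMD MLCs in filled blue, ER-Hoxb8 MLCs in filled red (circles for the GFPHox series, triangles for the WTHox series) and the macrophages grown in vitro as open circles. Black bars give the mean with its SD, the green line and band the median and range of 9 microglia libraries, and the dotted line the lowest value of the table. For As3mt and Hpgd the highest ER-Hoxb8 MLC is replicate 6, and for Apoe, Fcrls, Ctsd and Ms4a7 the groups overlap.

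Of 25 homeostatic microglia genes tested, 0 were higher and 3 lower (median -1.41): Pmepa1, Ltc4s and Fcrls. At an unadjusted p under 0.05, 12 were lower and 1 higher. An adjusted p under 0.05 was reached by 5 of the 25, against 1416 of all 11379 genes. The number of lower DEGs was 7 after quantile normalization and 1 with the Eif2s3y term, and the median was -0.88 without ER-Hoxb8 MLC replicate 6 and -0.59 without replicates 5 and 6. Pmepa1, a feedback inhibitor of TGF-beta signalling, lay at 5.43 to 7.48 log2 CPM in BMD MLCs (median 6.59) and at 1.72 to 4.88 in ER-Hoxb8 MLCs (median 2.43), without overlap (log2FC -3.67 ± 0.53, adjusted p = 0.000526). Microglia, at 5.42 to 6.86, matched the BMD MLC range. Ltc4s, leukotriene C4 synthase, fell by 3.45 ± 0.77. Its call was lost with the Eif2s3y term, at a log2FC of -3.535 (adjusted p = 0.0668). Fcrls, an Fc receptor-like gene of microglia, fell by 4.18 and lost its call without any 1 of BMD MLC replicates 4, 5 and 6 and ER-Hoxb8 MLC replicates 3 and 5 (adjusted p up to 0.0658). It also differed within the ER-Hoxb8 MLCs, with 9.21, 8.37 and 4.82 in the GFPHox libraries and 3.53, 3.39 and 1.49 in the WTHox libraries. Among 15 genes of the TGF-beta pathway itself 0 passed in limma, 3 had an unadjusted p under 0.05 and the median was -0.10, a value that changed sign when each library was centred on its median and came to -0.24 without ER-Hoxb8 MLC replicate 6.

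Among the 10 largest falls without overlap was As3mt, which methylates arsenic. It lay within 5.73 to 6.55 log2 CPM in BMD MLCs (median 6.06), close to microglia at 6.05 to 7.11, and at -3.62 to 4.82 in ER-Hoxb8 MLCs (median -0.09). The ER-Hoxb8 MLCs were spread over most of the scale, with replicates 4 and 5 at the lowest value and replicate 6 the highest (log2FC -6.24 ± 1.19, adjusted p = 0.00381). Hpgd, which inactivates prostaglandins, behaved alike, with 4.84 to 7.07 in BMD MLCs (median 6.09) and -2.66 to 3.77 in ER-Hoxb8 MLCs (median -0.40), and fell by 5.98 ± 0.94. Cmah, which hydroxylates sialic acid, fell by 5.83 ± 1.44, from 6.34 to 7.50 in BMD MLCs to -3.62 to 4.73. Tjp1, the tight junction scaffold ZO-1, had 4.49 to 5.55 in BMD MLCs (median 4.98), -2.53 to 1.72 in ER-Hoxb8 MLCs (median -0.17) and 6.24 to 8.14 in microglia (log2FC -5.26 ± 0.62, adjusted p = 0.000122). Xlr3b, an X-linked gene, stood at 5.32 to 6.00 in BMD MLCs and at -2.17 to 4.29 in ER-Hoxb8 MLCs. The remaining falls were Cd163, Fam110b (-5.66), Wtip (-5.54), Slc10a6 (-5.28) and Tdrkh (-5.12). Wtip and Slc10a6 were at the lowest value in 4 and 5 of the 6 ER-Hoxb8 MLC libraries, so their fold changes depend on that floor. As3mt, Hpgd, Tjp1, Wtip and Slc10a6 had medians under 1 CPM in ER-Hoxb8 MLCs and passed the filter through the BMD MLCs. Their differences and p-values in limma are therefore a description of levels.

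The list named iron handling had 13 genes tested, 0 higher and 3 lower (median -0.71, and -1.11 without ER-Hoxb8 MLC replicate 6). It includes Hpgd, the prostaglandin enzyme described above, which does not handle iron. The other 2 lower members were Cd163 and Cp, the copper oxidase ceruloplasmin. Hpgd and Cd163 passed the filter through the BMD MLCs, so their part of this count is a description. Cp fell by 2.72 from 7.51 to 8.35 log2 CPM in BMD MLCs to 2.21 to 6.57 (adjusted p = 0.00747). Its call was lost with the Eif2s3y term, at a log2FC of -2.78 (adjusted p = 0.0582). Of 16 progenitor and Hox genes, 8 were tested, and of these 0 were higher and 3 lower (median -2.12). Cd93, a receptor of early myeloid cells and macrophages, fell by 4.90 ± 0.67 without overlap (adjusted p = 0.000372). Cd34 fell by 2.29 and missed the threshold without BMD MLC replicate 1 or 2 or ER-Hoxb8 MLC replicate 3 (adjusted p up to 0.0609), and Sox4 fell by 2.25 but came to -1.96 without BMD MLC replicate 3. Among 14 Toll-like receptor genes Tlr5, the flagellin receptor, was lower (log2FC -4.57, adjusted p = 0.00255) and 0 were higher (median -0.60). With the Eif2s3y term the log2FC of Tlr5 was -3.18 (adjusted p = 0.0689). The number of lower DEGs in this list was 2 without ER-Hoxb8 MLC replicate 6, after quantile normalization and with the Eif2s3y term. In the MS4A family Ms4a4c rose by 2.64 ± 0.51 while Ms4a4a, Ms4a7 and Ms4a14 (-3.20) fell (11 tested, median 0.44). Ms4a4c came to 1.57 with the GFPHox libraries alone and to 1.94 without ER-Hoxb8 MLC replicates 5 and 6, under the limit in both fits, and without replicate 6 the family had 1 lower DEG.

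Of 16 C-type lectin and NKR-P1 receptors tested, 3 were higher and 1 lower (median -0.09, a sign that changed with median centring, and -0.53 without ER-Hoxb8 MLC replicate 6). The number of lower DEGs was 3 without that library, and with the Eif2s3y term the only lower call was lost. Klra2, an inhibitory Ly49 receptor, lay at 5.59 to 7.15 log2 CPM in BMD MLCs (median 6.09) and at 8.07 to 9.13 in ER-Hoxb8 MLCs (median 8.52), without overlap (log2FC 2.34 ± 0.28, adjusted p = 0.000135). Klrb1b rose by 4.19 and Klrb1c by 2.70, with overlap between the groups for both. The call of Klrb1c was lost with the Eif2s3y term, at a log2FC of 2.40 (adjusted p = 0.141). Gzma, a protease of NK and T cells, was at 8.78 in ER-Hoxb8 MLC replicate 6 and at -0.23 to 3.91 in the other 5. The lower member, the dendritic cell lectin Cd209a (-4.18), lost its call without any 1 of 9 libraries, with an adjusted p of up to 0.0744.

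All 20 genes of G2/M and mitosis had a positive log2FC (median 1.54), 6 had an adjusted p under 0.05, and 2 passed the log2FC limit as well, Birc5 and Ube2c. The number of DEGs in this list was 5 after quantile normalization, 4 without ER-Hoxb8 MLC replicate 6, and 6 without that library and BMD MLC replicate 3. Top2a, the topoisomerase of dividing cells, lay at 4.09 to 5.92 log2 CPM in BMD MLCs (median 5.34) and at 5.98 to 8.56 in ER-Hoxb8 MLCs (median 7.21), with a log2FC of 1.98 just under the limit (adjusted p = 0.0123). Birc5 (2.25) came to 1.97 at the least without BMD MLC replicate 1 or 2, and Ube2c (2.25) lost its call without any 1 of 4 libraries (adjusted p up to 0.0558). Of 20 S-phase genes 0 passed in limma, 9 had an unadjusted p under 0.05, all higher, and the median was 1.16 (4 were DEGs with the GFPHox libraries alone). Cdkn1a, the p53 target that arrests the cycle, rose by 2.66 ± 0.50, and Fas, a death receptor and p53 target, by 3.11 ± 0.59. They were the 2 DEGs of 13 p53 targets (median 0.29, and 0.18 without ER-Hoxb8 MLC replicate 6). Both calls were lost with the Eif2s3y term, at log2FC of 2.39 and 2.64 (adjusted p of 0.0596 and 0.0657).

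Several other programs were looked up as well. Over all genes tested 4.37% were DEGs (1.89% higher, 2.48% lower). In lists this short, here and elsewhere in the text, 0 or 1 DEG is near that share, so such counts are a description. Atf3 (2.39) was the single DEG of 15 integrated stress response genes, Egr1 (-3.62 to 0.15 log2 CPM in BMD MLCs and -0.42 to 3.08 in ER-Hoxb8 MLCs) of 17 immediate early genes and of 13 microglial transcription factors, and Pfkp, phosphofructokinase of platelets and activated cells (2.67), of 17 glycolysis genes. Egr1 passed the filter mainly through its level in ER-Hoxb8 MLCs, so its part of these counts is a description. The call of Atf3 was lost with the Eif2s3y term, at a log2FC of 2.27 (adjusted p = 0.0922). Among 20 respiratory chain genes 0 passed in limma (median 0.76). An unadjusted p under 0.05 was reached by 12, all higher, and an adjusted p under 0.05 by 10. Of all 11379 genes, 1416 had an adjusted p under 0.05, 794 of them higher. Mitochondrially encoded and ribosomal protein genes went the same way, with 9 of 9 and 10 of 14 higher at an unadjusted p under 0.05. The adenosine receptor gene Adora3 (2.01) of 10 purinergic genes lost its call without any 1 of 5 libraries (1.82 at the least), as did Gas6 (-2.67), a ligand of phagocytic receptors, without any 1 of 8 (adjusted p up to 0.0709). Gas6 was the lower DEG of 15 scavenger and phagocytic receptor genes, and Cd36, described above, the higher one. Cadm1 was the only DEG of 19 integrin and adhesion genes. The lists of NF-kB feedback (13 tested, 5 at an unadjusted p under 0.05, median 0.65), sterol synthesis (20, 3 and -0.10, a sign that changed with median centring), chemokine receptors (9, 3 and -0.22), Siglecs (8, 3 and -0.15), growth factor receptors (12, 7 and -0.40), NRF2 targets (16, 4 and -0.30) and myeloid transcription factors (15, 5 and 0.09) held 0 DEGs. Without ER-Hoxb8 MLC replicate 6 the median was -0.38 for chemokine receptors, -0.07 for Siglecs, -0.68 for growth factor receptors and -0.02 for myeloid transcription factors, and the sign for Siglecs changed after quantile normalization. With the GFPHox libraries alone 4 NF-kB feedback genes were higher, and 3 NRF2 targets and 3 myeloid transcription factors were lower.

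**Figure D4:**
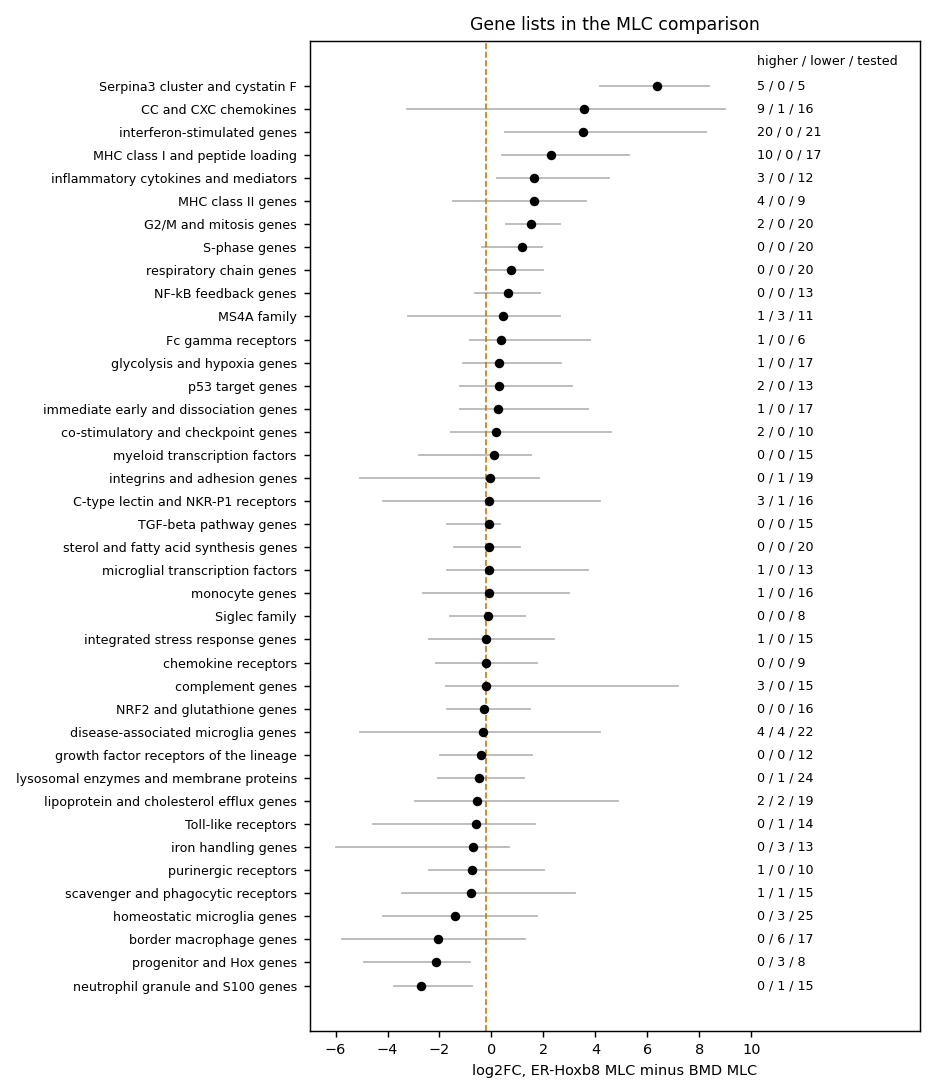
Gene lists ordered by their median log2FC between ER-Hoxb8 MLCs and BMD MLCs (horizontal axis, log2). Black points are medians over the members tested, grey lines run from the lowest to the highest member, the dashed line is the median of all 11379 genes tested (-0.20), and the figures at the right give members higher, lower and tested. Of the lists drawn, that of Serpina3 and cystatin F (5 of its 12 members) stands highest at 6.36 and the neutrophil list lowest at -2.70. Lists of cell markers and Y-linked genes are not drawn.

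The 2 series of ER-Hoxb8 MLCs were then set against the same 6 BMD MLC libraries, which the 2 comparisons share. GFPHox MLCs differed from BMD MLCs in 645 of 11379 genes (5.67%), 236 higher (2.07%) and 409 lower (3.59%), and WTHox MLCs in 936 (8.23%), 252 higher (2.21%) and 684 lower (6.01%). The chemokine list had 9 higher members in each series, and the MHC class I list had 11 in the GFPHox series and 10 in the WTHox series. Cxcl9 rose by 9.79 and 8.14, Cfb by 7.19 and 7.17 and Cd74 by 3.02 and 3.32, in the order GFPHox and WTHox. The GFPHox count fell to 426 without replicate 3. With only the libraries of the 2 groups in each fit, the counts were 830 for GFPHox and 808 for WTHox MLCs. Which series differed from BMD MLCs in more genes thus depended on the fit.

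Set directly against each other, the series differed in 387 genes (3.4%), 180 higher (1.58%) and 207 lower (1.82%) in GFPHox MLCs. Neutrophil genes made the clearest split: 11 of 15 were lower and 0 higher in GFPHox than in WTHox MLCs (median -5.05), and against BMD MLCs 12 were lower in the GFPHox series and 0 in the WTHox series. S100a8, a subunit of a calcium-binding dimer of neutrophils and monocytes, had 7.77, 6.08 and 6.46 log2 CPM in the GFPHox libraries, 12.27, 13.54 and 10.40 in the WTHox libraries and 10.23 to 13.19 in the BMD MLCs. Its pooled log2FC of -2.70 did not pass (adjusted p = 0.15), and the only pooled call of the list was Ltf (-3.77), lost without BMD MLC replicate 5 or 6 or ER-Hoxb8 MLC replicate 3 (adjusted p up to 0.0529). Homeostatic genes ran the other way, with 6 of 25 higher and 0 lower in GFPHox MLCs (median 1.72). Against BMD MLCs 1 homeostatic gene was lower in the GFPHox series (median -0.37) and 16 were lower in the WTHox series (median -2.60). Csf1r, for example, lay at 11.37, 10.23 and 10.32 in GFPHox libraries, 8.61, 7.97 and 6.08 in WTHox libraries and 9.62 to 11.43 in BMD MLCs (log2FC between the series 3.09, adjusted p = 0.0143). Of 16 monocyte genes 5 were lower in GFPHox than in WTHox MLCs and 0 higher, and Ifitm3, an antiviral membrane protein, was the only call of this list in the pooled comparison (2.78 ± 0.40). The count between the series was 175 without replicate 1, 251 without replicate 3 and 948 without replicate 6, so it rests on few libraries. It was 62 when the BMD MLCs did not enter the fit. That fit leaves out their spread and also has fewer libraries, and the part of each was not tested.

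To see whether the difference between the donor cells was already there in a dish, the same genes were looked up in the macrophages grown in vitro. There 158 of 10764 genes were DEGs (1.47%), 30 higher (0.279%) and 128 lower (1.19%) in ER-Hoxb8 macrophages, but this count was fragile: 10 without BMD macrophage replicate 1, 30 without replicate 2, 101 without replicate 3, and 58 and 86 without ER-Hoxb8 macrophage replicates 1 and 2. With the replicate number as a block limma gave 0 DEGs in vitro, and 909 genes had an unadjusted p under 0.05. Of the 155 higher MLC DEGs that were tested in vitro, 5 were also higher there: Gbp6, Apoc1, Fas, Igf2bp3 and Naaa. Of the 214 lower MLC DEGs tested in vitro, 42 were also lower there. Apoc1 lay at -2.44 to -0.63 log2 CPM in BMD macrophages and at 3.11 to 4.53 in ER-Hoxb8 macrophages, a log2FC of 5.26 (adjusted p = 0.0194) beside 4.86 in the brain. It passed the filter in culture only through the ER-Hoxb8 macrophages, so its part of these counts is a description of levels. Igf2bp3, an RNA-binding protein of fetal and progenitor cells, rose by 3.89 in vitro and by 3.01 ± 0.30 in the brain. Naaa, a lysosomal amidase, rose by 2.50 and by 2.37, and the latter call was lost without any 1 of 10 libraries (adjusted p up to 0.0714). No chemokine, MHC class I or co-stimulatory gene was a DEG in vitro (9, 17 and 9 tested in limma, 2 in each list at an unadjusted p under 0.05). With 1.47% of all genes called in vitro (0.279% higher), 0 calls in lists of this size is near that share. It does not show that these programs were alike in culture. Ccl8, Cxcl9, Cxcl10 and Cxcl11 were not tested there.

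Several of the largest falls were present in both settings. As3mt, Hpgd, Cadm1 and Fkbp9 passed the filter in culture only through the BMD macrophages, so their values there are a description of levels. As3mt was at -3.62 log2 CPM in all 3 ER-Hoxb8 macrophage libraries and at 3.23 to 4.38 in BMD macrophages, and Hpgd was at -3.62, -3.62 and -2.13 against 1.58 to 4.38. Cadm1 had values of -2.47 to -2.29 and 6.37 to 7.65, a log2FC of -9.43 in vitro (adjusted p = 0.000764) beside -5.04 in the brain. Fam110b fell by 4.68 in vitro, and Fkbp9, a peptidyl-prolyl isomerase, was at the lowest value in all 3 ER-Hoxb8 macrophages and at 1.72 to 2.69 in BMD macrophages. Apoe lay at 0.25 to 1.09 in ER-Hoxb8 macrophages and at 7.69 to 11.95 in BMD macrophages (log2FC -9.32, adjusted p = 0.0108). Apoe was thus low in ER-Hoxb8 cells in the dish but at 10.68 to 12.82 in the brain, and the difference between donor cells was smaller in the brain by a log2 value of 6.38 (interaction, adjusted p = 0.00558).

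The interaction tested for each gene whether the difference between donor cells was another in brain than in culture, and 260 of 11842 genes passed (2.2%), 180 with a positive interaction, meaning a log2FC further up in brain (1.52%), and 80 with a negative one (0.676%). The count was 172 without BMD macrophage replicate 1 and 393 without ER-Hoxb8 MLC replicate 4. In the chemokine list 6 of 16 members had a positive interaction and 0 a negative one, in the MHC class I list 11 of 17 and 0, and in the MHC class II list 4 of 9 and 0. Ccl8, Cxcl9, Cxcl10 and Cxcl11 among the 6, and Ciita among the 4, did not pass the filter in culture. They entered the test through their levels in MLCs, so their part of these counts is a description of levels. Cxcl10 was at -3.62, -1.10 and -0.70 log2 CPM in ER-Hoxb8 macrophages and at -1.74 to 0.11 in BMD macrophages. The groups overlapped at these low levels, which reach the lowest value of the table. The interaction of 9.19 is therefore not an exact size. H2-Aa changed sides: it was lower in ER-Hoxb8 than in BMD macrophages in vitro (-4.63, adjusted p = 0.0248) and higher in the brain (2.84), an interaction of 7.47 (adjusted p = 2.76e-05). Cd36 had 2.97 to 6.90 in ER-Hoxb8 and 6.41 to 10.05 in BMD macrophages, with an interaction of 7.41 (adjusted p = 0.00733). The ER-Hoxb8 macrophages carry the Cas9 het genotype, the ER-Hoxb8 MLCs are labelled WT, and RNA was extracted with another kit in vitro, so setting, genotype and extraction cannot be told apart in this test.

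**Figure D5:**
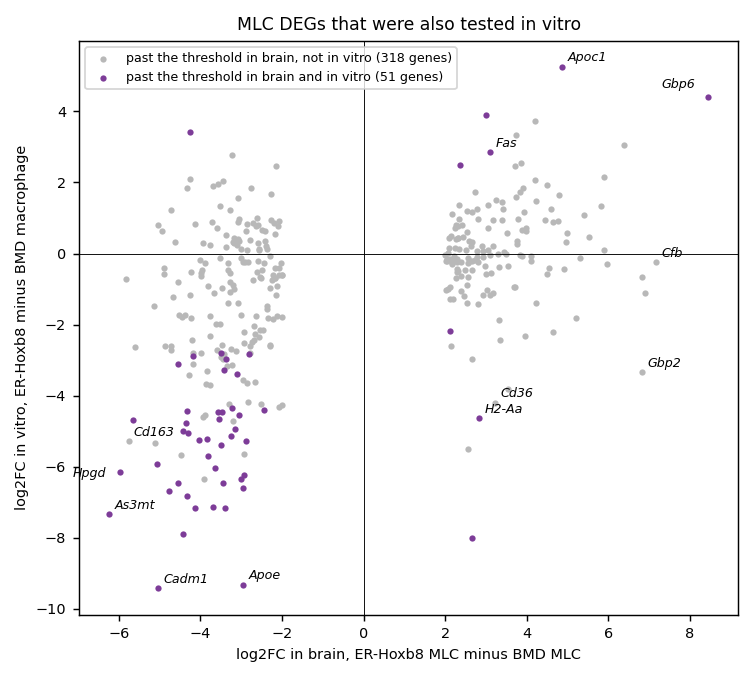
The MLC DEGs that were also tested in vitro, with the log2FC in brain (ER-Hoxb8 MLC minus BMD MLC, horizontal axis) and in vitro (ER-Hoxb8 minus BMD macrophage, vertical axis). Purple points are the 51 genes past the threshold in both settings and grey points those past it in the brain alone. Among purple points 42 are lower in both settings, 5 are higher in both and 4 (H2-Aa, Fabp7, Slc7a2 and Gpr97) have opposite signs. The call of Fabp7 in the brain (2.65) was lost without any 1 of 8 libraries (adjusted p up to 0.0709).

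Markers of several other cells that a brain sort can hold were looked up as lists. Neurons (2 genes tested), astrocytes (7), choroid plexus (3) and erythroid cells (5) held 0 DEGs in limma and 0 genes with an unadjusted p under 0.05, and neutrophil markers (9 tested) held 0 DEGs with 6 at an unadjusted p under 0.05, all lower. Of 3 endothelial and mural genes Flt1, a VEGF receptor, was higher, at -2.07 to 2.68 log2 CPM in BMD MLCs and 3.97 to 5.84 in ER-Hoxb8 MLCs (log2FC 3.97 ± 0.72), and the pericyte gene Rgs5 was lower (-3.35), a call lost without any 1 of 7 libraries (adjusted p up to 0.0789). T, NK and B cell markers (11 tested, median 2.72) gave 2 higher genes, Cd8a and Cd79a, and each call was lost without any 1 of 10 and 9 libraries (adjusted p up to 0.0977 and 0.094). At an unadjusted p under 0.05, 7 of the 11 were higher and 1 lower, and the number of higher DEGs was 8 after quantile normalization and 6 with the GFPHox libraries alone. That list summed to 223.7 to 1597 CPM in ER-Hoxb8 MLCs, highest in replicates 6 and 3, and to 304.2 to 866 CPM in BMD MLCs. Its most abundant gene was Ighm, except in ER-Hoxb8 MLC replicate 6, where it was Gzma. Of 8 dendritic cell genes 0 were higher and 1 lower, Cd209a (median -1.02, and 0.05 with 1 higher and 1 lower after quantile normalization), and mast cell genes passed the filter in 0 of 7 cases. Of 4 Y-linked genes Kdm5d was lower (-2.29, median -3.03). Mitochondrially encoded genes (9 tested, median 0.80) and ribosomal protein genes (14 tested, median 0.53) held 0 DEGs in limma, with 9 and 10 members higher at an unadjusted p under 0.05.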

How the data were processed

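RNA-seq of sorted brain cells and of cultured macrophages was used as deposited by the authors: log2 CPM with TMM normalization, made with kallisto 0.46.0 (GRCm39), edgeR and limma, with FastQC and MultiQC for quality. Of 29957 rows, 1 without a name was dropped, and 27 of 92 columns were used, grouped by the labels. CPM was recovered by removing the lowest value (-3.62 log2). The depth of single libraries is unknown; a prior count of 2 would put the mean at 24.5 M counts.

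Genes above 1 CPM in at least 6 libraries (3 in vitro) were tested with limma 3.58.1 (eBayes with trend, Benjamini-Hochberg adjustment) in R 4.3.3. The calls were tested on simulated data, drawn as normal values for each gene without outlying libraries or a floor. That test does not bear on how far the calls depend on such features. Figures and promoters used Python 3.11.15, numpy 2.4.6 and matplotlib 3.10.9. Named genes are the 10 largest DEGs without overlap in each direction, the 5 largest shared with culture, the 5 largest interactions in each direction, and members of the gene lists. Which list members to single out was chosen after their values were seen. Members and lists were chosen with earlier results of these data known; tests and all alternatives but 3 were fixed before the data were examined. Alternatives changed the libraries fitted, pairing, pseudocount, filter, normalization, fold change limit, variance model and replicates.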

Additional observations from a re-analysis of the deposited data

Results flagged for a closer look

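Within the 2 groups of 6 MLC libraries, 238 sets of values (named genes and summed lists) were checked for a library far from the others, and 18 had one, 14 of them genes. Chance gives about 1 in 20. ER-Hoxb8 MLC replicate 6 accounted for 4: it was low for C4b (4.56 log2 CPM, others 7.44 to 8.01), Ccl8 (3.35, others 7.14 to 9.31) and Cp (2.21, others 5.49 to 6.57), and high for the summed monocyte genes (44370 CPM, others 2709 to 11400). ER-Hoxb8 MLC replicate 5 was high for summed erythroid genes (7696 CPM, others 230.8 to 838.1) and mast cell genes (90.3 CPM, others at most 1.03). Replicate 4 was low for Cxcl11 (1.08, others 6.19 to 7.95) and Egr1 (-0.42, others 2.09 to 3.08). Replicate 3 was low for Ms4a14 (-1.18, others up to 3.03), and for Slc10a6 it was at -2.32 with the others at the lowest value.

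BMD MLC replicate 3 was low for H2-Q7 (1.68, others 2.93 to 3.55), H2-T10 (3.12, others 3.71 to 4.00) and Kdm5d (2.26, others 4.38 to 5.27) and high for summed mast cell genes (90.3 CPM, others at most 1.63). BMD MLC replicate 1 was low for Psmb9 (4.22, others 4.85 to 5.16) and Xlr3b (5.32, others 5.86 to 6.00), replicate 2 for Fcgr4 (2.57, others 3.73 to 4.25) and replicate 4 for Gbp6 (0.74, others 1.31 to 1.60).

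A difference between groups was found in 2 tests. The gap between donor cells was another in brain than in culture for 260 genes, and the GFPHox and WTHox MLCs differed in 387. The largest positive interactions were Fabp7 (10.67), Gbp2 (10.18), Cxcl10 (9.19), Gnb4 (9.06) and Id3 (8.57). The value for Cxcl10 rests on low levels in culture that reach the lowest value of the table. Fabp7 had a log2FC of -8.02 in vitro beside 2.65 in brain. Id3 was above 1 CPM in only 3 MLC libraries, with mean log2 CPM of -0.26 in ER-Hoxb8 MLCs and -2.42 in BMD MLCs. The largest negative interactions were G0s2 (-8.46), Gpr97 (-7.69), Mgl2 (-7.60), Tmem40 (-7.52) and Mmp9 (-7.52). The cause was not tested.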

How the results depend on the processing

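The comparison of ER-Hoxb8 MLCs with BMD MLCs gave 392 to 601 DEGs when each library was left out in turn, 191 to 273 higher and 192 to 344 lower. A limit of 1 on the log2FC gave 1111 DEGs (574 higher, 537 lower), and library weights gave 846 (581 lower). GFPHox libraries only gave 830 (536 lower) and WTHox libraries only 808 (576 lower). Quantile normalization gave 357 higher DEGs, a fit of 27 libraries 449 lower, and a filter at a mean CPM above 5 174 lower. Quantile normalization moved the median of all genes tested by 0.15 and median centring by 0.13. Median centring gave 254 higher and 253 lower DEGs. The cause of the changes in counts was not tested.

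The replicate block, built on the replicate numbers of the labels, gave 449 DEGs, 427 of them shared. The pairing was weak: after removing group means, same-numbered libraries correlated at -0.312 to 0.204, 3 of 6 above 0.1, and 2 of 6 matched their own number best. In vitro the replicate block gave 0 DEGs in limma (909 genes at an unadjusted p under 0.05), and for the interaction 210 genes.

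A limit of 1 gave 1207 genes for GFPHox against BMD MLCs and 1762 for WTHox. Leaving out each library gave 426 (without ER-Hoxb8 MLC replicate 3) to 612 and 693 to 1344. GFPHox against WTHox ranged from 175 (without ER-Hoxb8 MLC replicate 1) to 948 (without replicate 6), with 251 without replicate 3, and was 62 from the 6 libraries alone. In vitro the range was 10 (without BMD macrophage replicate 1) to 109 (without ER-Hoxb8 macrophage replicate 3), and for the interaction 172 (without BMD macrophage replicate 1) to 393 (without ER-Hoxb8 MLC replicate 4).

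Over 107 named genes and 29 settings there were 3092 values: 2806 kept direction and side of the threshold, 265 no longer passed it, 20 newly passed it and 1 reversed, G0s2 with WTHox libraries only (0.11, adjusted p = 0.935). Of the 102 past the threshold, 61 kept it in all settings. Leaving out pairs of libraries and the Eif2s3y term were chosen after seeing the data. Single-library depth is unknown, so the lowest detectable level cannot be given per library.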

Other observations

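With genes above 1 CPM in at least 3 libraries, 30 further list members could be tested, and 2 passed the threshold. Both entered only through the ER-Hoxb8 MLCs, in which they are high, so levels alone are given. Sall3, a transcription factor of microglia, lay at -3.07 to -1.37 log2 CPM in BMD MLCs, at 3.36 to 5.37 in 5 ER-Hoxb8 MLC libraries and at -0.30 in replicate 6, with a median of 6.61 in microglia. Pdcd1lg2, which encodes PD-L2, was at the lowest value in 5 BMD MLC libraries and at 3.20, -2.83, 3.22, -3.06, 2.08 and 4.20 in ER-Hoxb8 MLC replicates 1 to 6. Serpina3n stayed low in both groups, at -1.20 to 1.77 in ER-Hoxb8 MLCs and -3.62 to -3.05 in BMD MLCs.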
